A study of Mus musculus with 6 samples.

Results

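Genes of 7 families of plasma membrane and organelle carriers, most of which move amino acids, were compared between mouse embryonic stem (ES) cells that had lost most transcript of the cohesin subunit Rad21 and control ES cells. They were chosen by name, as genes whose symbol is Slc1a, Slc3a, Slc6a, Slc7a, Slc36a, Slc38a or Slc43a and a number, leaving out the imprinted Slc38a4. The rule itself uses no measured value, but the families were picked with earlier results of these data known. The rule gave 59 genes of 19938 in all, each standing for itself on at least 1 probe set that carried no other gene's symbol. Not every one of them carries amino acids: within family 6, Slc6a2, Slc6a3 and Slc6a4 carry noradrenaline, dopamine and serotonin, and Slc6a8 carries creatine.

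Scc1 lox/lox ERT2-Cre cells were set against Scc1 wt/wt ERT2-Cre cells, with 3 arrays of each, 1 per culture. Scc1 is an older name of Rad21, which closes the cohesin ring, and lox sites on both alleles let Cre remove it. The recombinase ERT2-Cre, carried by both genotypes, enters the nucleus when 4-hydroxytamoxifen (4-OHT) is given, and all 6 cultures received 4-OHT for 24 h, at 80 nM by the sample labels (the design text writes mM). The ES cells were female, of a mixed C57BL/129 background, derived and grown in the inhibitor medium 2i with LIF, and kept on laminin. Nothing in the labels says whether each genotype was 1 clone. Since no untreated cultures were analysed here, the loss of Rad21 and an older difference between the lines cannot be told apart.

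Most amino acids need carriers to cross membranes. Some couple uptake to sodium or protons and concentrate their substrate, as families 1, 6, 36 and 38 do, while most of family 7 exchange one amino acid for another. Most light chains of family 7 reach the cell surface only as pairs, each bound by a disulfide bridge to a heavy chain of family 3: Slc3a2 (the CD98 heavy chain) or Slc3a1. Supply of leucine, arginine and glutamine through these carriers feeds protein synthesis and the growth kinase complex mTORC1, and several of the genes are classic targets of Atf4, the transcription factor of the amino acid starvation response.

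Levels are log2 intensities of the deposited table, in which the median of all values was 4.90 and array medians ran from 4.85 to 4.94. Correlations between arrays lay between 0.9892 and 0.9947. The first principal component of the deviations from the genotype means held 41.2% of their variance. It had loadings of 0.537 on lox/lox replicate 3 and 0.576 on wt/wt replicate 2, against -0.475 on wt/wt replicate 1 and -0.283 to -0.101 on the other 3 arrays. Calls that were lost without any 1 array are given without it. The targeted gene was read first: Rad21 stood at 6.08, 6.06 and 6.14 on the lox/lox arrays, against 10.05, 9.99 and 10.01 on the wt/wt arrays, a 15.2-fold lower level (adjusted p = 1.57e-09 in limma). Of the 8 markers of ES cells, all had a mean above 4.90 in both genotypes, and 4 (Fgf4, Nanog, Sox2 and Esrrb) were called lower in lox/lox cells (4 of 8, beside 6.16% of all genes and 10.0% of those above the array median). An unadjusted p under 0.05 was found for 7 of the 8, among them Dppa4, which had the opposite sign (log2 change 0.23, adjusted p = 0.116 in limma). The mean level of all 8 markers was 10.16 to 10.32 over the lox/lox arrays and 10.46 to 10.52 over the wt/wt arrays. Markers of fibroblasts, which would come from feeder cells, averaged 4.68 to 4.83 on the lox/lox and 4.59 to 4.84 on the wt/wt arrays, and 0 of 9 were called in limma, with 1 at an unadjusted p under 0.05. A mean above 4.90 in both genotypes was found for 4 of these 9: Col1a1, Col1a2, Col3a1 and Thy1. The lists for primitive endoderm (8 genes), trophoblast (8) and neural cells (5 measured) held 1, 1 and 0 called genes, Lama1 and Tfap2c, each lower in lox/lox cells, with 1 gene per list at an unadjusted p under 0.05. In each genotype 3, 5 and 2 genes of these lists had a mean above 4.90. The part of the shifted ES markers in the results was not tested. In a bulk sample, fewer cells of a kind and less RNA per cell cannot be told apart.

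Few of the transporter genes differed between the genotypes. Of the 59, 3 passed an adjusted p under 0.05, or 5.08%, beside 6.16% of all 19938 genes. Called higher in lox/lox cells were Slc7a7 and Slc38a2, or 2 genes, where 2.55% of all genes were called higher, and called lower was Slc7a6, or 1 gene, where 3.61% were. These shares are close to the background. At an unadjusted p under 0.05 there were 10 transporter genes, 5 higher and 5 lower, or 16.9%, beside 18.0% of all genes. In 7 transporter genes the ranges of the genotypes were wholly apart, or 11.9%, beside 22.8% of all genes. By level, 26 of the 59 had a mean above 4.90, and among these the called share was 11.5%, beside 10.0% of all genes above that level. With a change of at least 1.5-fold as well, 2 of the 59 were called, Slc7a7 and Slc7a6 (3.39%, beside 2.26% of all genes). The median log2 change of the 59, lox/lox minus wt/wt, was -0.027, that of all genes -0.008.

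**Figure D1:**
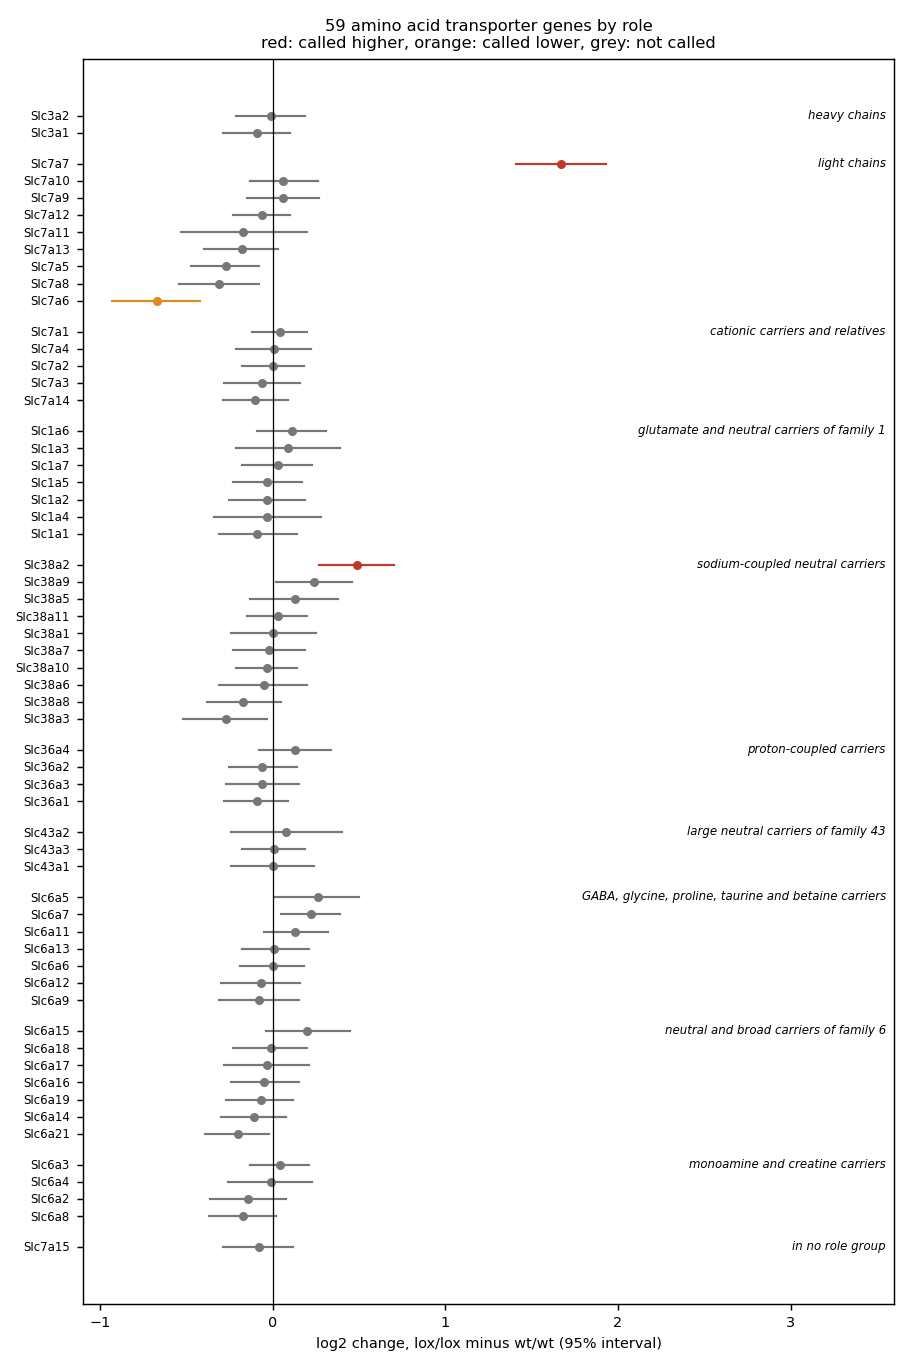
Log2 change, lox/lox minus wt/wt (horizontal axis), of each of the 59 transporter genes (rows, grouped by role), with its 95% interval from limma. Slc7a7 at 1.67, Slc38a2 at 0.49 and Slc7a6 at -0.67 are the coloured points; the intervals of the other 56 genes all lie within 1.5-fold.

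The start regions of the 3 called genes are shown because the results turn on these genes, and because 1 of them carries the letters of an amino acid response element. The windows run from 250 bases before to 50 bases after the most upstream start that RefSeq lists, 5′ to 3′ on the gene's strand, in build GRCm38.p6. Slc7a7 (chr14:54417895-54418194, minus strand) has 5 listed windows, Slc7a6 (chr8:106168604-106168903, plus strand) has 2, and Slc38a2 (chr15:96699679-96699978, minus strand) has 1. Capitals mark matches to 3 motifs searched on both strands: TGATGCAA, the core of the amino acid response element that Atf4 and C/EBP factors bind; the E-box CACGTG that Myc and Max bind; and core letters of the motif of CTCF, which stops cohesin on chromatin (CC, 3 free bases, AG, 2 free bases and GGC). No motif matches overlap in these windows.
Slc7a7: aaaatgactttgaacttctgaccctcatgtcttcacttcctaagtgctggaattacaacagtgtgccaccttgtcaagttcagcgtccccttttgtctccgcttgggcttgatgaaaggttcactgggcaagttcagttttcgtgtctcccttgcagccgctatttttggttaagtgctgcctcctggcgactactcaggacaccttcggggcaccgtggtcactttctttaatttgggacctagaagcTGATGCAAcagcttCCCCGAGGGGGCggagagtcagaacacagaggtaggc
Slc7a6: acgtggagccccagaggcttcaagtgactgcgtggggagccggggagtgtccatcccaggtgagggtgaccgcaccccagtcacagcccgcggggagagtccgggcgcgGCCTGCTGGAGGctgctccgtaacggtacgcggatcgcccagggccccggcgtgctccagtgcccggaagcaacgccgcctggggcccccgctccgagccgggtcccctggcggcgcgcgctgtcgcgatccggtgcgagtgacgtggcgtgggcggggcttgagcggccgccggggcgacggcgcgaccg
Slc38a2: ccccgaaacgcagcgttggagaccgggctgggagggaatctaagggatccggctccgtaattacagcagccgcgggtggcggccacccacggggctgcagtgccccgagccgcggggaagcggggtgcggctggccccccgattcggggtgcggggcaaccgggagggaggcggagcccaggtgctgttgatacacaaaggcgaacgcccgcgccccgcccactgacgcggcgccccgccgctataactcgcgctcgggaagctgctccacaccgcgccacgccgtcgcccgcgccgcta
In the Slc7a7 window TGATGCAA stands across the start itself, with a CTCF core after it. The Slc7a6 window has a CTCF core on the other strand, and the Slc38a2 window has none of the 3 motifs. Sequence outside the windows was not searched, so an element elsewhere in Slc38a2 or another gene would be missed.

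Such matches are descriptions and not sites of binding. RefSeq windows were found for 42 of the 59 genes, 61 windows in all. A gene counts when any of its windows holds the motif, so a gene with more windows has more room for a match. Shares of windows are another measure than shares of genes. TGATGCAA was in a window of 3 of these 42 genes (7.14%), beside 1.03% of the 27025 genes with a window and 0.895% of all 32851 windows. The E-box was in 9 of 42 (21.4%, beside 8.09% of genes and 7.15% of windows) and the CTCF core in 6 of 42 (14.3%, beside 9.84% of genes and 8.61% of windows). The 3 genes with TGATGCAA were Slc7a7, Slc7a11 and Slc1a4, and Slc7a11 holds it 2 times, in opposite directions. The 30 bases around each match are given next on the strand that reads TGATGCAA (in capitals), at chr14:54417927-54417956 minus for Slc7a7, chr3:50443661-50443690 minus and chr3:50443642-50443671 plus for Slc7a11, and chr11:20332699-20332728 plus for Slc1a4.
Slc7a7: gacctagaagcTGATGCAAcagcttccccg
Slc7a11, first match: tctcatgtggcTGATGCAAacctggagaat
Slc7a11, second match: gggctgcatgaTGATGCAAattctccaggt
Slc1a4: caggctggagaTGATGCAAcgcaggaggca
The changes of these 3 genes were unlike: Slc7a7 had a log2 change of 1.67, Slc7a11 of -0.17 (95% interval -0.53 to 0.20) and Slc1a4 of -0.03 (95% interval -0.34 to 0.28).

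Among the light chains, a pair of close relatives changed in opposite directions. Slc7a7 and Slc7a6 encode y+LAT1 and y+LAT2, which both pair with Slc3a2 and let arginine and lysine out of the cell in exchange for neutral amino acids and sodium. In people, loss of SLC7A7 causes lysinuric protein intolerance. Slc7a7 stood at 7.83, 7.78 and 7.81 on the lox/lox arrays, against 6.21, 6.34 and 5.85 on the wt/wt arrays. The lox/lox arrays lay within 0.05 of one another and well clear of the wt/wt arrays, which spread over 0.49. Slc7a7 was thus 3.18-fold higher in the lox/lox cultures, a log2 change of 1.67 with an SE of 0.12 (95% interval 1.41 to 1.93, adjusted p = 4.71e-05 in limma). Leaving out any 1 array kept its log2 change between 1.53 and 1.77 and its call.

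Slc7a6 had 6.47, 6.39 and 6.71 on the lox/lox arrays, against 7.01, 7.38 and 7.19 on the wt/wt arrays. All lox/lox arrays were below all wt/wt arrays, with lox/lox replicate 3 the nearest to them. In lox/lox cells Slc7a6 was lower by 1.59-fold, a log2 change of -0.67 with an SE of 0.11 (95% interval -0.93 to -0.42, adjusted p = 0.00633 in limma). Dropping any single array left Slc7a6 called, at log2 changes of -0.76 to -0.58, and its highest adjusted p was 0.0407, without lox/lox replicate 2.

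The heavy chain that both need did not pass the test. Slc3a2 had 10.83, 10.93 and 11.04 on the lox/lox arrays, against 11.08, 10.88 and 10.87 on the wt/wt arrays. The ranges overlapped almost fully, and the log2 change was -0.01 with a 95% interval of -0.21 to 0.19 (adjusted p = 0.972 in limma). Slc3a1, the heavy chain of the kidney and gut cystine carrier, was below the array median on all 6 arrays, at 3.99 ± 0.12 in lox/lox cells, against 4.08 ± 0.07 in wt/wt cells (SD, n = 3 each).

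**Figure D2:**
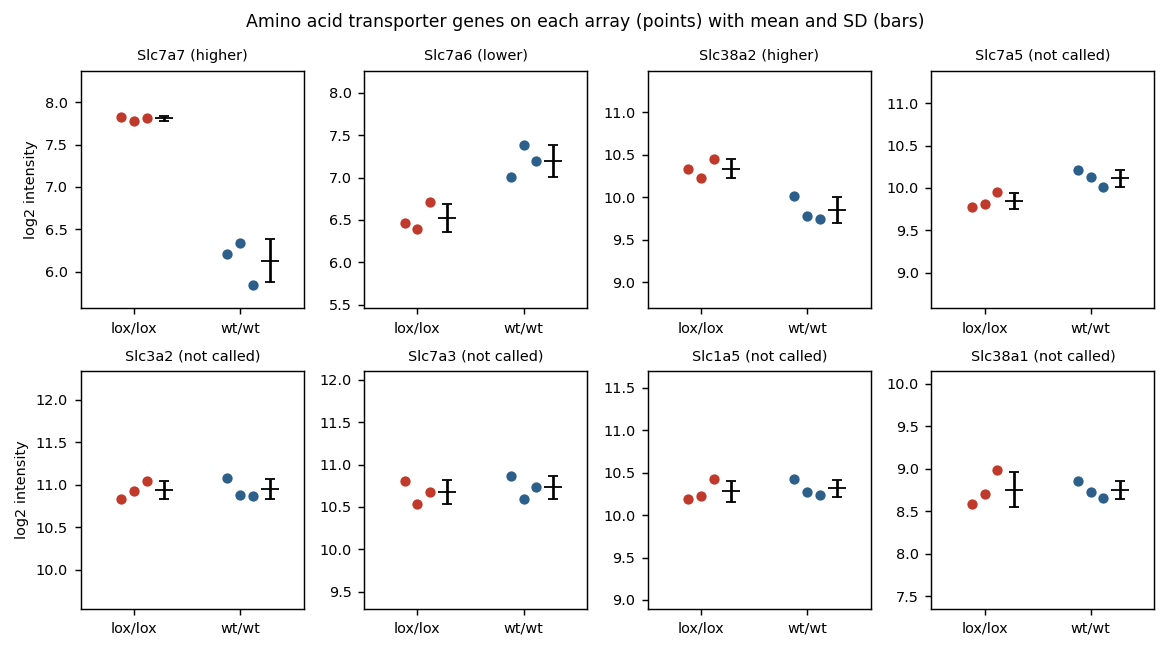
Log2 intensity (vertical axes, each spanning the same number of log2 units) of 8 transporter genes on the 3 lox/lox and 3 wt/wt arrays (points), with mean and SD beside them. Slc7a7 and Slc38a2 are higher and Slc7a6 lower on every lox/lox array, while Slc3a2, Slc7a3, Slc1a5 and Slc38a1 overlap.

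Of the other 7 light chains none was called, and 2 of them came next in the order of p. Slc7a5 (LAT1) imports leucine and other large neutral amino acids in exchange for glutamine. It had 9.78, 9.81 and 9.95 on the lox/lox arrays, against 10.21, 10.13 and 10.01 on the wt/wt arrays. The arrays did not overlap, yet the log2 change of -0.27 (95% interval -0.47 to -0.08) had an adjusted p of 0.106 in limma, and 0.0222 with a variance trend and robust fit. Slc7a8 (LAT2), its relative with a broader range of neutral substrates, had 4.45, 4.37 and 4.08 on the lox/lox arrays, against 4.60, 4.69 and 4.53 on the wt/wt arrays. All 6 values were under the array median, where a change is understated, and the log2 change of -0.31 had an adjusted p of 0.130 in limma. Slc7a11 (xCT), which takes up cystine in exchange for glutamate, ranged from 4.11 to 4.47 in lox/lox cells, against 4.12 to 4.84 in wt/wt cells, with overlap. The other light chains, Slc7a9, Slc7a10, Slc7a12 and Slc7a13, had log2 changes of 0.06, 0.06, -0.06 and -0.18.

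Cationic amino acid carriers of family 7 that work without a heavy chain held 0 called genes of 5, with 0 at an unadjusted p under 0.05. Slc7a1, the arginine and lysine carrier through which ecotropic mouse retroviruses enter, had 8.60, 8.56 and 8.58 on the lox/lox arrays, against 8.55, 8.58 and 8.48 on the wt/wt arrays. Slc7a3, a further carrier of this kind and X-linked, had 10.81, 10.53 and 10.68 on the lox/lox arrays, against 10.87, 10.59 and 10.73 on the wt/wt arrays. Both genes overlapped between genotypes, with 95% intervals of the log2 change of -0.12 to 0.20 for Slc7a1 and -0.28 to 0.16 for Slc7a3. Slc7a2, Slc7a4 and Slc7a14 lay below the array median on all 6 arrays, with log2 changes of 0.00, 0.01 and -0.10. So did Slc7a15, a family 7 gene placed in no role group, with -0.08.

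The sodium-coupled neutral carriers of family 38 held the third call. Slc38a2 (SNAT2) takes up alanine, serine and glutamine with sodium and is known to be induced by amino acid starvation through Atf4. It had 10.33, 10.23 and 10.45 on the lox/lox arrays, against 10.02, 9.78 and 9.74 on the wt/wt arrays. Every lox/lox array lay above every wt/wt array, with wt/wt replicate 1 the nearest to them. Slc38a2 stood 1.40-fold higher there, a log2 change of 0.49 with an SE of 0.10 (95% interval 0.27 to 0.70, adjusted p = 0.0144 in limma). Its call depended on single arrays: leaving out lox/lox replicate 3 gave an adjusted p of 0.0537 and a log2 change of 0.43. Leaving out wt/wt replicate 2 gave 0.0504 and 0.46, and leaving out wt/wt replicate 3 gave 0.0730 and 0.44. In each of those fits 1 transporter gene was called higher, Slc7a7, in place of 2.

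Its neighbour and close relative Slc38a1 (SNAT1) had 8.58, 8.70 and 8.98 on the lox/lox arrays, against 8.86, 8.73 and 8.66 on the wt/wt arrays. The genotypes overlapped, with a log2 change of 0.00 and a 95% interval of -0.24 to 0.25. A second probe set of Slc38a1 gave a log2 change of 0.11 (adjusted p = 0.740 over all probe sets in limma). Slc38a9, a lysosomal carrier that senses arginine for mTORC1, had log2 changes of 0.24 on each of its 2 probe sets (adjusted p = 0.244 and 0.391 in the fit over all probe sets). Slc38a3 (SNAT3), which can run in both directions with glutamine, had a log2 change of -0.27 (adjusted p = 0.205 in limma). The other 6 of the 10 family members, Slc38a5, Slc38a6, Slc38a7, Slc38a8, Slc38a10 and Slc38a11, ranged from -0.17 to 0.13.

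Family 1 joins the glutamate carriers of nerve and glia with a pair of neutral exchangers, and 0 of 7 members were called, with 0 at an unadjusted p under 0.05. Slc1a5 (ASCT2), which trades glutamine for other neutral amino acids, had 10.19, 10.23 and 10.42 on the lox/lox arrays, against 10.43, 10.27 and 10.24 on the wt/wt arrays. Slc1a4 (ASCT1), the serine and alanine exchanger, had 7.30, 7.52 and 7.86 on the lox/lox arrays, against 7.76, 7.60 and 7.42 on the wt/wt arrays. In both genes the genotypes overlapped, and the spread within a genotype was wider than the log2 change of -0.03. The glutamate carriers Slc1a1, Slc1a2, Slc1a3, Slc1a6 and Slc1a7 had log2 changes from -0.09 to 0.11.

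The proton-coupled carriers of family 36 and the carriers of family 43 held 0 called genes of 4 and of 3, with 0 at an unadjusted p under 0.05. Slc36a1, which moves small amino acids across the lysosomal and plasma membrane, had 5.41 ± 0.02 in lox/lox cells, against 5.51 ± 0.12 in wt/wt cells (SD, n = 3 each). Slc36a2 (4.49 ± 0.13 in lox/lox cells, against 4.55 ± 0.05 in wt/wt cells), Slc36a3 and Slc36a4 lay below the array median on all 6 arrays, with log2 changes of -0.06, -0.06 and 0.13. Slc43a2 (LAT4), a carrier of essential neutral amino acids, had 5.32 ± 0.31 in lox/lox cells, against 5.24 ± 0.17 in wt/wt cells (SD, n = 3 each). Its lox/lox arrays spread over 0.61, and the ranges overlapped. Slc43a3, known as a carrier of purine bases, had 5.52 ± 0.07 in lox/lox cells, against 5.51 ± 0.10 in wt/wt cells (SD, n = 3 each), and Slc43a1 (LAT3) had a log2 change of 0.00.

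In family 6 none of 18 members was called in limma, with 3 at an unadjusted p under 0.05. Of the carriers of GABA, glycine, proline, taurine and betaine, 2 of 7 had an unadjusted p under 0.05: Slc6a7, the proline carrier of synapses (log2 change 0.22, adjusted p = 0.150), and Slc6a5, the glycine carrier of inhibitory neurons (0.26, adjusted p = 0.247). Slc6a7 was higher on every lox/lox array, at 5.59, 5.53 and 5.62, against 5.29, 5.44 and 5.34 on the wt/wt arrays. Slc6a6, the taurine carrier, had 9.21, 9.09 and 9.31 on the lox/lox arrays, against 9.15, 9.23 and 9.23 on the wt/wt arrays. Slc6a9 (GlyT1), the other glycine carrier, had 6.32, 6.40 and 6.61 on the lox/lox arrays, against 6.68, 6.53 and 6.37 on the wt/wt arrays. Neither gene separated the genotypes, with 95% intervals of -0.19 to 0.18 and -0.31 to 0.15. Slc6a11, Slc6a12 and Slc6a13 had log2 changes of 0.13, -0.07 and 0.01.

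Among the 7 neutral and broad carriers of family 6, Slc6a15, a carrier of branched-chain amino acids and proline, had 6.45, 6.15 and 6.23 on the lox/lox arrays, against 5.87, 6.21 and 6.13 on the wt/wt arrays. Its ranges overlapped, with a log2 change of 0.20 (adjusted p = 0.396 in limma). Slc6a17, a vesicular carrier of neurons, had 4.47 ± 0.15 in lox/lox cells, against 4.50 ± 0.18 in wt/wt cells (SD, n = 3 each). With Slc6a17, the other 6, Slc6a14, Slc6a16, Slc6a18, Slc6a19 and Slc6a21, lay below the array median on all arrays and had log2 changes from -0.20 to -0.01. The lowest of these changes was that of Slc6a21, at 3.98, 3.84 and 3.78 on the lox/lox arrays, against 4.08, 4.01 and 4.13 on the wt/wt arrays (adjusted p = 0.215 in limma). The creatine carrier Slc6a8, X-linked, had 8.62, 8.66 and 8.49 on the lox/lox arrays, against 8.63, 8.84 and 8.83 on the wt/wt arrays (log2 change -0.17, adjusted p = 0.357 in limma). The monoamine carriers Slc6a2, Slc6a3 and Slc6a4 lay below the array median and had log2 changes of -0.14, 0.04 and -0.01, the last with 4.57 ± 0.11 in lox/lox cells, against 4.59 ± 0.20 in wt/wt cells (SD, n = 3 each).

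Most of the family can be bounded as well as left uncalled. For each of the 56 genes that did not pass, the whole 95% interval of the log2 change lay between -0.58 and 0.58, which is a change of less than 1.5-fold either way. Counting called and uncalled genes together, this was so for 56 of the 59, beside 18542 of all 19938 genes. These shares are similar, so the bound is not particular to the family. For genes under the array median the bound applies to the measured signal, which background keeps from falling further. That limit covers most of the 56, since 33 of them had a mean at or below 4.90. Above that level the bound held for 23 of 26 genes, beside 10175 of all 11400. Each interval covers its own gene and not the 56 together.

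Cohesin shapes loops that span neighbouring genes, so the 5 measured genes on each side of the 3 called genes were read as well, a choice made after the calls were known. Over all genes 6.16% were called and 18.0% had an unadjusted p under 0.05. Around Slc7a7 on chromosome 14, 0 of 10 neighbours were called in limma, with 1 at an unadjusted p under 0.05, and their log2 changes ran from -0.19 to 0.21. The next genes on either side, Oxa1l and Mrpl52, had 0.04 and 0.08. Around Slc7a6 on chromosome 8, 1 of 10 was called, the cadherin gene Cdh3, with a mean of 6.45 in lox/lox cells, against 5.28 in wt/wt cells (log2 change 1.17, adjusted p = 0.00177 in limma). Cdh3 lay at the far end of the stretch, and Slc7a6os, next to Slc7a6, had 0.04. An unadjusted p under 0.05 was found for 1 of these 10, Cdh3 itself. Around Slc38a2 on chromosome 15, 1 of 10 was called, the imprinted Slc38a4, which is the next gene on one side. There 2 of 10 had an unadjusted p under 0.05, Slc38a4 and Rpap3 (log2 change -0.33, adjusted p = 0.0873 in limma). Slc38a4 had 8.47, 8.64 and 8.98 on the lox/lox arrays, against 9.37, 9.53 and 9.43 on the wt/wt arrays (log2 change -0.75, adjusted p = 0.00492 in limma). In this row of 3 related genes, Slc38a1, Slc38a2 and Slc38a4 thus had log2 changes of 0.00, 0.49 and -0.75. A link between the changes of neighbours was not tested.

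**Figure D3:**
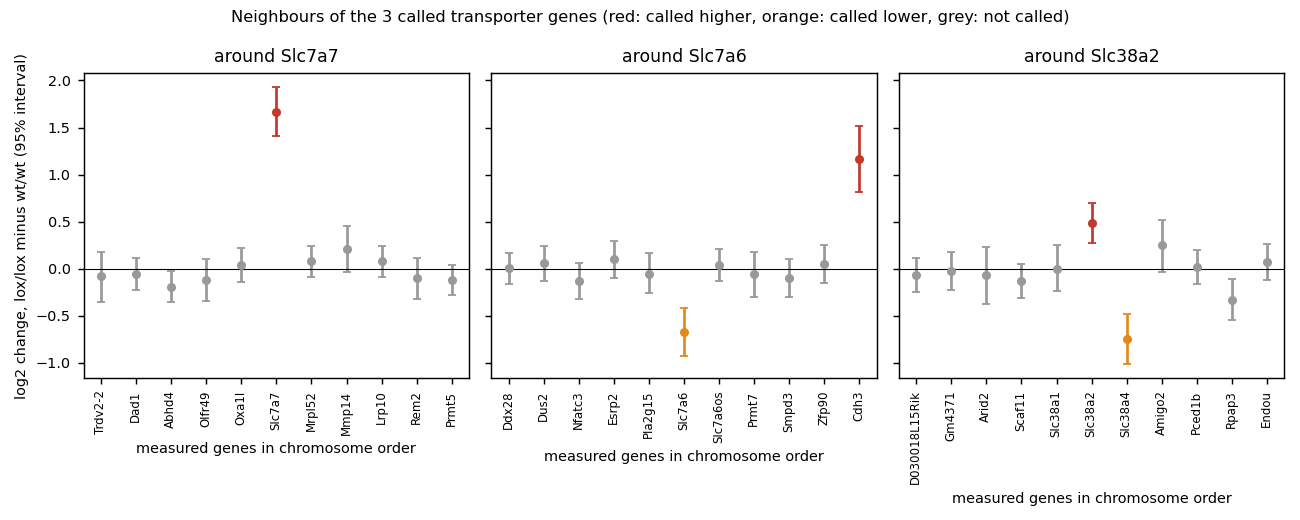
Log2 change, lox/lox minus wt/wt, with its 95% interval (vertical axis) of the 5 measured genes on each side of Slc7a7, Slc7a6 and Slc38a2 in chromosome order (horizontal axis). The called neighbours are Cdh3 at 1.17 and Slc38a4 at -0.75.

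Of the transporter genes, 9 are known as Atf4 targets: Slc1a4, Slc1a5, Slc3a2, Slc6a9, Slc7a1, Slc7a3, Slc7a5, Slc7a11 and Slc38a2. Only Slc38a2 of these was called (11.1%, beside 6.16% of all genes and 10.0% of those above the array median, where 8 of the 9 lay), 2 had an unadjusted p under 0.05, and the median log2 change of the 9 was -0.03. Atf4 itself had 9.34 ± 0.07 in lox/lox cells, against 9.43 ± 0.08 in wt/wt cells (SD, n = 3 each; adjusted p = 0.675 in limma). Within a genotype these genes leaned the same way on some arrays. Of the 9, 6 were highest on lox/lox replicate 3 among the lox/lox arrays, as were 51.9% of all genes with a mean above the array median. Of the 9, 7 were highest on wt/wt replicate 1, beside 35.8% of those genes. On wt/wt replicate 3, 8 were lowest, beside only 3847 of 11400 of those genes. The lean of the 9 on these wt/wt arrays was thus not shared by those genes as a whole. Slc1a4 spread over 0.56 among the lox/lox arrays alone, beside a log2 change of -0.03. The part of such shifts between arrays in the called genes was not tested, beyond the values without single arrays.

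**Figure D4:**
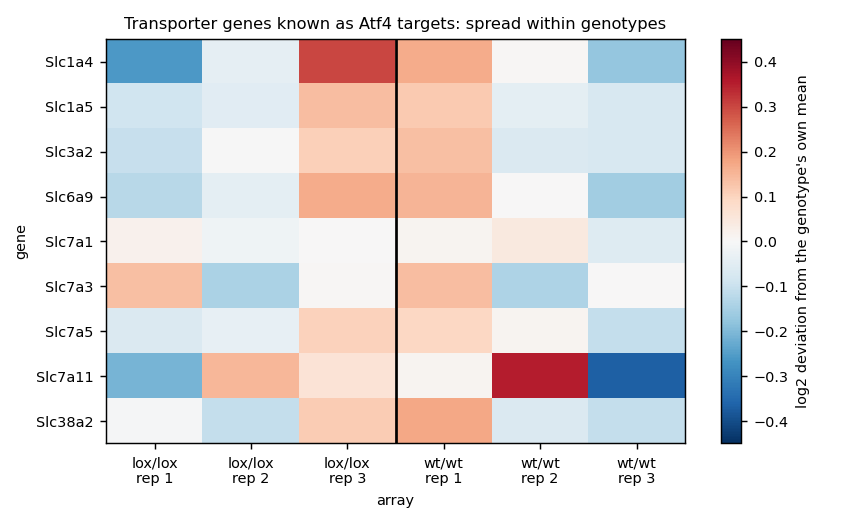
Deviation of each log2 value from the mean of its own genotype (colour) for the 9 transporter genes known as Atf4 targets (rows) on the 6 arrays (columns, lox/lox left of the line). Of the 9 genes, 6 are highest on lox/lox replicate 3 and 7 on wt/wt replicate 1 within their genotype.

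Genes of amino acid sensing by mTORC1 and the kinase GCN2 were compared as a related list. Most act upstream of mTORC1, but the list also held Mtor and Rptor of mTORC1 itself, Eif2ak4 (GCN2 itself) and Atf4. Of 32 measured, 4 were called higher and 0 lower in lox/lox cells. That is 12.5%, beside 6.16% of all genes and 10.0% of those above the array median, where 31 of the 32 lay. Called higher were 2.55% of all genes and 469 of the 11400 above the array median. An unadjusted p under 0.05 was found for 10, beside 18.0% of all genes and 26.1% of those above the median. Of these 10, Sesn1, Eif2ak4 and Impact were lower and not called, with log2 changes of -0.20, -0.26 and -0.26. The median log2 change of the list was 0.02. Rragd, 1 of the Rag GTPases that recruit mTORC1 to the lysosome, had 8.76, 8.86 and 8.99 on the lox/lox arrays, against 7.90, 8.10 and 7.91 on the wt/wt arrays. All lox/lox arrays of Rragd exceeded all wt/wt arrays, by 1.87-fold on average (a log2 change of 0.90 with an SE of 0.09, adjusted p = 0.000378 in limma). Castor1, a cytosolic arginine sensor that restrains mTORC1, had 9.15, 9.09 and 9.24 on the lox/lox arrays, against 8.49, 8.44 and 8.43 on the wt/wt arrays. It was 1.64-fold higher (adjusted p = 0.000512 in limma). Rragd and Castor1 kept their calls in all 6 fits without 1 array.

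The other called genes of the sensing list held less firmly. Sesn2, a leucine sensor that restrains mTORC1, had a log2 change of 0.47 (adjusted p = 0.0114 in limma, and 0.0601 without wt/wt replicate 3). Flcn, folliculin, which activates RagC and RagD, had 0.41 (adjusted p = 0.0236 in limma). Flcn kept its call without wt/wt replicate 1 alone. Leaving out any of the other 5 arrays gave an adjusted p between 0.0576 and 0.105. Without wt/wt replicate 3 the list held 2 called genes in place of 4.

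Enzymes of amino acid synthesis and glutamine use were measured for 23 of 30 listed genes, and 1 was called higher and 1 lower (8.70%, beside 10.0% of all genes above the array median, where all 23 lay). Gldc, the glycine decarboxylase of the mitochondrial glycine cleavage system, had 9.48, 9.71 and 9.89 on the lox/lox arrays, against 8.90, 8.72 and 8.67 on the wt/wt arrays. Gldc was thus 1.91-fold higher in the lox/lox cells (adjusted p = 0.000880 in limma) and kept its call without any 1 array. Cth, which makes cysteine from cystathionine, had 9.80, 9.74 and 9.95 on the lox/lox arrays, against 10.27, 10.33 and 10.06 on the wt/wt arrays. Its log2 change was -0.39 (adjusted p = 0.0393 in limma), and leaving out lox/lox replicate 1 or 2, or wt/wt replicate 1 or 2, ended its call (adjusted p between 0.0946 and 0.165). Without lox/lox replicate 2, wt/wt replicate 1 or wt/wt replicate 2 this list held 1 called gene.

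Of 22 further carriers of amino acids and peptides, 1 was called (4.55%, beside 6.16% of all genes). Most were of other families, but Slc6a20a and Slc6a20b are of family 6. The naming rule left them out because their symbols end in a letter. Slc15a1 (PepT1), which takes up di- and tripeptides with protons, had 5.24, 5.49 and 5.63 on the lox/lox arrays, against 6.14, 6.34 and 6.26 on the wt/wt arrays. All lox/lox arrays were below all wt/wt arrays, and Slc15a1 was lower in the lox/lox cultures by 1.73-fold (a log2 change of -0.79 with an SE of 0.11, adjusted p = 0.00170 in limma). It kept its call in all 6 fits without 1 array. The other 21, among them the mitochondrial carriers of family 25 and the vesicular glutamate carriers, were not called.

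**Figure D5:**
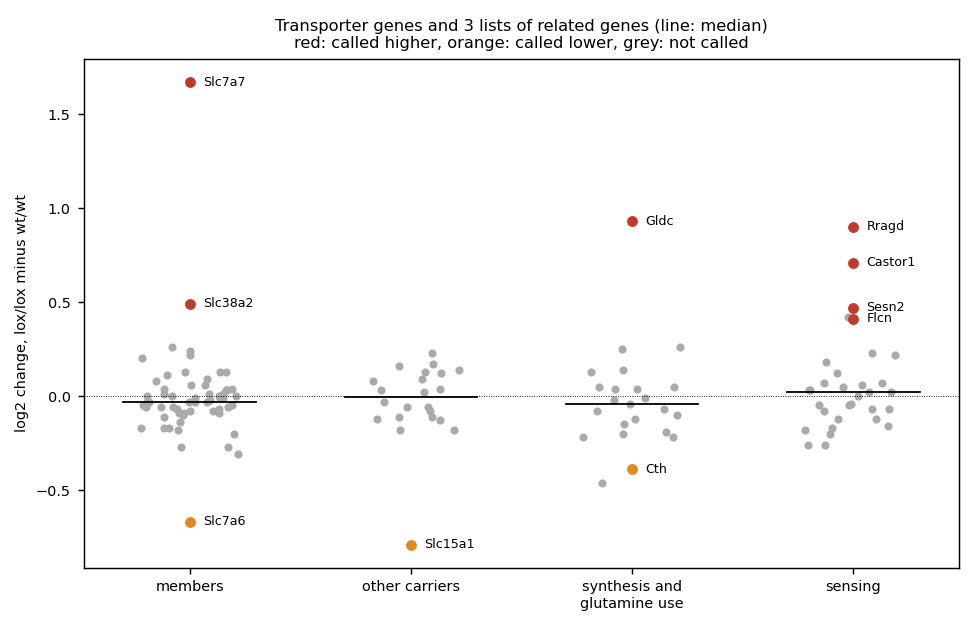
Log2 change, lox/lox minus wt/wt (vertical axis), of the 59 transporter genes and of 3 lists of related genes (columns), 1 point per gene and a line at each median. Called genes are named: Slc7a7, Slc38a2 and Slc7a6, Slc15a1, Gldc and Cth, and Rragd, Castor1, Sesn2 and Flcn of the sensing list.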

How the data were processed

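RNA of 6 cultures, 1 Affymetrix Mouse Gene 1.0 ST array each, was prepared from 200 ng of total RNA per the design text. The authors deposited log2 values; the submitters' processing notes name RMA and affy, and neither versions nor a genome build are given in the sources used here. RMA assumes like distributions on all arrays, so a global change of RNA per cell cannot be seen, and background compresses changes of dim genes. The design text calls the replicates biological. No batch label was given.

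From the 35556 probe sets, the 21789 with exactly 1 gene symbol in the platform annotation were used (1621 had several and 12146 none), and the brightest probe set (by its 6-array mean) stood for each of 19938 genes. Chromosomes, aliases and gene order came from the RefSeq table of GRCm38.p6, and start windows from RefSeq in the same build. R 4.3.3 with limma 3.58.1 fitted all genes (eBayes after lmFit, differences as lox/lox minus wt/wt), and "called" means an adjusted p under 0.05 by the method of Benjamini and Hochberg across the whole table. The code was tested on simulated data. The genes, lists and tests were chosen with earlier results of these data known. The rule named with values every called gene, the 2 brightest of each role group, the 2 genes just outside the threshold, both heavy chains, and called genes of related lists; other genes were named to account for all 59. Alternatives changed the scaling between arrays, the filter on dim genes, the choice of probe set, the variance model, array weights, the replicate block, the threshold and the arrays used. The labels do not say whether same-numbered cultures were handled together. Deviations of same-numbered arrays correlated at 0.10, -0.23 and -0.10. With so few arrays per genotype these values cannot decide whether the samples were paired. The main fit did not pair them.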

Additional observations from a re-analysis of the deposited data

Results flagged for a closer look

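A second probe set of Slc38a9, which did not stand for the gene in the comparison, was higher on all 3 lox/lox arrays (4.95, 5.43 and 4.92) than on the wt/wt arrays (4.85, 4.84 and 4.90), by 0.24 on the log2 scale (adjusted p = 0.391 in limma over all probe sets). The brighter probe set of the gene had the same log2 change of 0.24, with overlapping arrays. The difference of the second probe set rested mostly on lox/lox replicate 2, and its other values lay near 4.90, the median of all values. Ranges wholly apart were found for 22.8% of all genes.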

How the results depend on the processing

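The number of arrays, 3 per genotype, limits the precision. In all, 16 other fits and 2 other thresholds were compared. Slc7a7 and Slc7a6 kept their direction and their call in all 16 fits (log2 changes of 1.53 to 1.77 and -0.76 to -0.58). Slc38a2 lost its call in 4, 3 of them without 1 array (log2 change 0.43 to 0.57 over the fits without 1 array). The number of transporter genes called higher was 1 at an adjusted p under 0.01, 1 with at least 1.5-fold, 1 without lox/lox replicate 3 and wt/wt replicate 2 together (the arrays with the highest loadings on the first principal component of the deviations, an alternative chosen after seeing the data), and 1 to 2 without 1 array. The number called lower was 2 with a variance trend and robust fit, which added Slc7a5, and 1 in all fits without 1 array. Over all genes 553 were called at the stricter threshold, 451 with at least 1.5-fold, 697 without those arrays together and 626 to 1132 without 1 array (626 when lox/lox replicate 2 was dropped, 806 when wt/wt replicate 2 was and 661 when wt/wt replicate 3 was). The sensing list held 2, 2, 2 and 2 to 5 called genes under these settings, and the synthesis list 1, 1, 1 and 1 to 2. The synthesis list held 5 with a variance trend and robust fit. The stricter thresholds call fewer genes by construction, and the cause of the other shifts was not tested. With the replicate block, 3 transporter genes and 1 synthesis gene were called (Cth was lost, adjusted p = 0.0690), and no other gene named by the rule changed its call. The median log2 change of the 59 genes lay between -0.047 and 0.011. Of the 56 uncalled genes, 31 changed sign in some fit and 25 in none, and Slc7a5 was called in 1 fit.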
